A study of Mus musculus with 6 samples.

Results

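The 10 genes Fos, Fosb, Jun, Junb, Atf3, Egr1, Ier2, Ier3, Socs3 and Irf1, out of 31053 genes in the count matrices, were followed in lung endothelial cells (ECs). They were selected on measured values, because they lead a capillary cluster at P8, so their levels are given as a description with no test. ECs were cells with at least 2 UMIs (distinct captured RNA molecules) of Pecam1 plus Cdh5. There were 32105 ECs among 59793 cells that passed the filters. All 10 genes were detected in ECs of all 6 libraries.

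Of these libraries, 4 held reporter-sorted lung cells from embryos of E13.5, E15.5 or E18.5 and from P8 pups, all Cxcl12DsRed/+, a genotype in which DsRed replaces 1 copy of the chemokine gene Cxcl12. Each was made from several lungs pooled, digested warm with collagenase I, dispase and DNase, and sorted for DsRed+, CD31+, EpCAM- and CD45- cells. DsRed+ CD31- cells were collected as well. The other 2 libraries were whole E18.5 lungs, digested in the same way but not sorted. Of these, 1 was labelled Cxcl12 null (Cxcl12DsRed/DsRed) and 1 labelled control (Cxcl12DsRed/+), so every animal carried the reporter. Each condition had 1 library, and no test across samples was possible. All intervals are exact 95% intervals that cover counting error only. Time, sort and library cannot be told apart.

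Immediate-early genes are transcribed within minutes of a stimulus by factors already in the cell, and most of their transcripts are short-lived. Fos, Fosb, Jun and Junb encode subunits of the AP-1 transcription factor, and Atf3 encodes a stress-induced factor of the same leucine-zipper group. Egr1 is a zinc-finger factor induced by growth factors and shear, while Ier2 and Ier3 are small immediate-early proteins. Socs3 is a feedback inhibitor of cytokine signalling through STAT3, and Irf1 is a transcription factor of the interferon response. Both are also induced early. In tissues digested with warm enzymes such genes are a known sign of the dissociation itself, and in vessels they also respond to flow and injury.

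The libraries held 63746333 to 117522172 UMIs, and the median EC had 5667 to 8924. There were 8259 ECs at P8, 9119 at E18.5, 9453 at E15.5 and 210 at E13.5, and 3042 and 2022 in the whole lungs labelled null and control. All 8 further endothelial markers checked, such as Cldn5, were detected in the ECs of each library. ECs were 1.65% of the cells at E13.5, where 10719 of 12726 cells were mesenchymal, and 81.1% to 97.7% in the later sorts. Each library held 135 to 265 barcodes also found in another. Cxcl12 RNA went against the whole-lung labels. Its level in ECs was 498.9 CPM (UMIs of a gene per 1000000 UMIs of the cells pooled) in the library labelled null and 4.24 CPM in the library labelled control, against 720 to 1210 CPM in the sorted libraries. The names given to the whole-lung data also state the opposite genotypes. ECs were 33.2% of the cells in the library labelled null and 24.5% in the library labelled control. Any direction drawn between these libraries rests on labels that the Cxcl12 check goes against.

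The sequences near the members' start sites that matter for what follows are short matches to the sites of factors upstream of these genes. RefSeq promoters on GRCm38.p6 were found for 8 members, not for Egr1 and Ier2, and the 250 bases before the start were searched on both strands. Irf1 had 2 promoters, and its matches lay in the first. The STAT site TTCNNNGAA, where STAT factors bind, was found in Irf1 and Socs3 and in 7.02% of all 32851 promoters. The NF-kB site was found in Fos, Fosb, Ier3 and Irf1 and in 3.90% of promoters. These matches are shown because Socs3 acts on STAT3 signalling and because genes of the STAT3 and NF-kB pathways were counted beside the members. Capitals mark the match, and each is written from 5′ to 3′ on the gene's strand.
Socs3 STAT (chr11:117969502-117969530, minus strand): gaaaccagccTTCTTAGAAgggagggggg
Irf1 STAT (chr11:53769914-53769942, plus strand): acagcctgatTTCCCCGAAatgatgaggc
Irf1 NF-kB (chr11:53769991-53770013, plus strand): agtccgggccGGGGAATCCCgct
Ier3 NF-kB (chr17:35821611-35821640, plus strand): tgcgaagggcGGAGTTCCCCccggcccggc
Fos NF-kB (chr12:85473666-85473695, plus strand): ggaaggtctaGGAGACCCCCtaagatccca
Fosb NF-kB (chr7:19310214-19310243, minus strand): acgcagccttGGGGACCCCCgagaccccca
The Socs3 match starts 154 bases before the RefSeq start site, and the Irf1 matches start 90 and 13 bases before the first Irf1 start site. The GRCm38 gene annotation draws Socs3 from 117966079 to 117970047 and Atf3 from 191170296 to 191218039, both on the minus strand with a start upstream of the RefSeq one, so the windows searched for these genes lie inside them as drawn there. The core of the CRE, TGACG, which CREB and ATF factors bind, was found in Atf3, Fos, Fosb and Junb, 4 of 8, and in 17.8% of promoters. The whole CRE TGACGTCA, the AP-1 site TGACTCA or TGAGTCA, the CArG box of serum response factor and the IRF site were in no window of the 8 members and in 1.47% to 4.46% of promoters. A match is a description of the letters only. Sites further from the start or with other letters were not searched, so a window without a match does not show that a gene lacks the site.

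In the GRCm38 annotation no member overlaps another. Junb and Ier2 share chromosome 8, and Socs3 and Irf1 share chromosome 11. Fos spans 85473890 to 85477273 on the plus strand of chromosome 12, and Jun spans 95049034 to 95052222 on the minus strand of chromosome 4. Transcripts of the opposite strand overlap Jun (Junos), Junb (Prdx2), Atf3 (Gm24748) and Irf1 (Gm17334). None of the last 300 bases of any member was shared with another gene over 60 bases.

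Across the sorted time course the summed level of the 10 genes in ECs was 13898 CPM (13868 to 13927) at P8, 6231 (6211 to 6251) at E18.5, 1613 (1605 to 1621) at E15.5 and 1141 (1092 to 1191) at E13.5. The whole E18.5 lungs lay between E15.5 and E18.5 of the sorted series, at 4571 CPM (4549 to 4594) in the library labelled null and 4272 (4244 to 4300) in the library labelled control. P8 was the highest library for all 10 genes. Levels are from the unadjusted counts unless stated. In the whole-lung counts that the authors adjusted for free RNA with SoupX, Fosb (29.9 CPM), Junb (245), Atf3 (38.8), Ier2 (330) and Socs3 (33.3) in the library labelled control and Atf3 (26.5) in the library labelled null fell below sorted E15.5, and Fosb in the former also below E13.5. The sum at P8 rests on 857810 member UMIs and that at E13.5 on 2056. Summed markers of other cells in the same ECs moved along the time course as well. Those of mesenchymal cells were at 867, 395, 149 and 19.7 CPM from E13.5 to P8, of epithelial cells at 2.22, 8.52, 471 and 394, of erythroid cells at 22.8, 511, 1207 and 910, of lymphatic ECs at 28.9, 50.4, 434 and 362 and of cycling cells at 456, 488, 221 and 174. Their part in the members' levels was not tested.

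**Figure D1:**
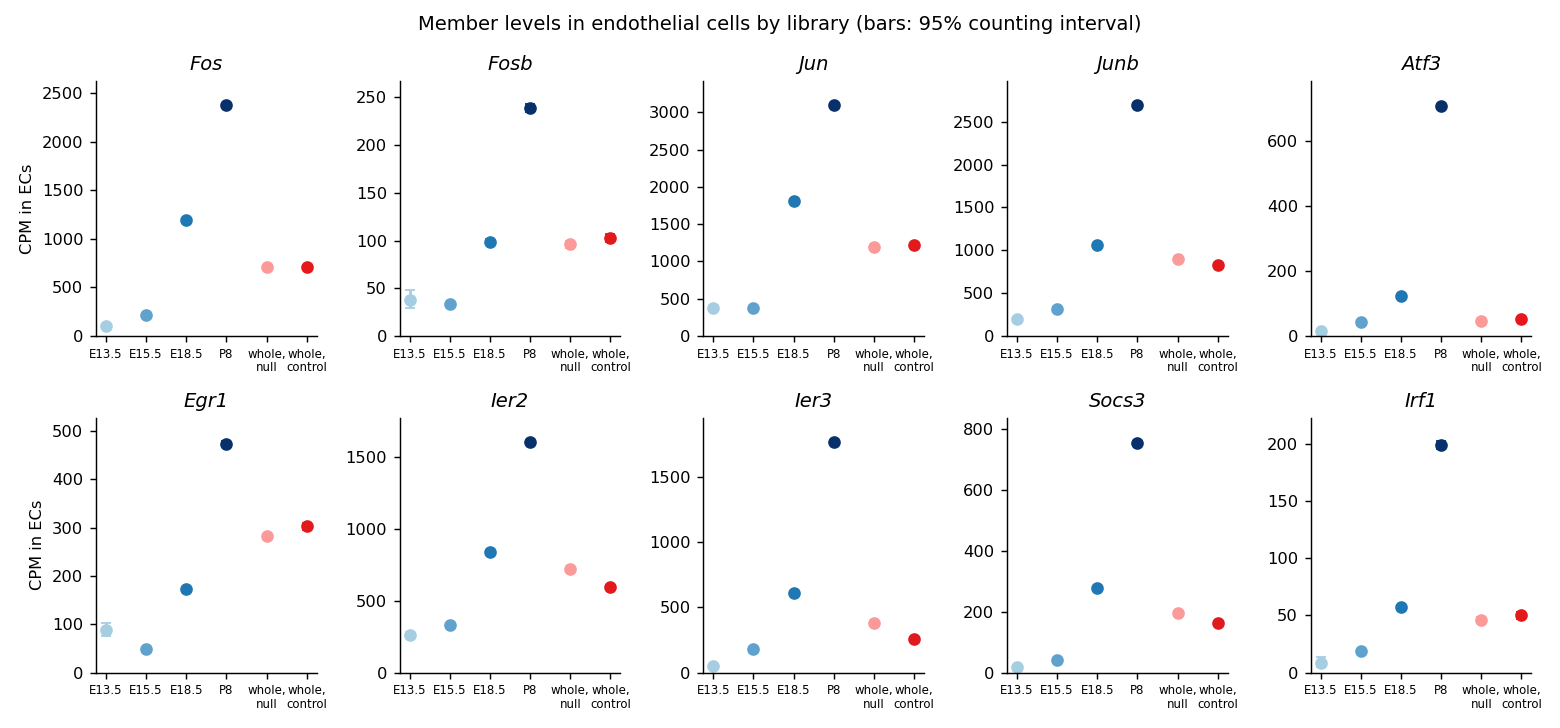
Level of each of the 10 genes in ECs, in CPM on a linear axis scaled for each gene, by library. Points are single libraries and bars are exact 95% Poisson intervals. P8 is the highest library for every gene, and in these unadjusted counts the sorted E13.5 and E15.5 libraries are lower than the E18.5 libraries for all 10, which does not hold for 5 of them with the SoupX-adjusted whole-lung counts.

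The AP-1 subunits carried most of the member UMIs. Fos was at 98.2, 218, 1189 and 2373 CPM from E13.5 to P8, with 710 and 711 in the libraries labelled null and control. Its whole-lung levels did not differ beyond counting error. Jun was at 369, 379, 1811 and 3097 CPM over the time course, with 1193 and 1221 in the libraries labelled null and control. E13.5 and E15.5 did not differ for Jun beyond counting error. Junb was at 194, 316, 1056 and 2691 CPM, with 903 and 822 in the libraries labelled null and control, so each of its neighbouring levels differed beyond counting error. Fosb, the least abundant of the 4 in UMIs, was at 37.7, 33.6, 98.6 and 239 CPM, with 95.8 and 102.5 in the libraries labelled null and control. For Fosb neighbouring levels among the E18.5 libraries did not differ beyond counting error, nor did E13.5 and E15.5.

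Among the other transcription factors, Atf3 was at 14.98, 41.7, 124 and 708 CPM from E13.5 to P8, with 45.1 and 52.9 in the libraries labelled null and control. Its P8 level stood far above all others. Egr1 had another order, at 88.2, 48.4, 173 and 474 CPM, with 282 and 302 in the libraries labelled null and control. It was lower at E15.5 than at E13.5, and lower in the sorted than in the whole E18.5 lungs. The last direction turned with the SoupX-adjusted counts, in which Egr1 was at 153 and 93.8 CPM in the libraries labelled null and control. Irf1 was at 8.32, 18.7, 57.1 and 199 CPM, with 46.5 and 49.99 in the libraries labelled null and control. Its E13.5 level rests on 15 UMIs (4.66 to 13.7 CPM), and the whole lungs did not differ for it beyond counting error.

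Of the remaining genes, Ier2 was at 260, 333, 834 and 1599 CPM, with 717 and 593 in the libraries labelled null and control. Ier3 was at 52.7, 183, 611 and 1764 CPM, with 384 and 254 there. Socs3 was at 17.2, 41.5, 276 and 754 CPM, with 195 and 162 there. These 3 genes had the same order of libraries, with the library labelled null above the library labelled control.

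The mix of the genes differed between libraries. Jun gave 32.3% of the member UMIs of ECs at E13.5 and 22.3% at P8, and Ier2 gave 22.8% and 11.5%. Fos gave 8.6% at E13.5 and 19.1% at E18.5. Atf3 gave 5.1% at P8 and 1.0% to 2.6% in the other libraries.

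Between E15.5 and E13.5 the sum differed by 0.50 on the log2 scale, computed here and below from CPM plus 0.5. A difference was called when it reached 2-fold in a gene of at least 50 CPM in either pool, and of the 6 members that reached that level Fos (log2 1.15) and Ier3 (1.78) were called higher at E15.5, against a background of 2.89% of all genes tested. Egr1 differed by -0.86 and Jun by 0.04. Between E18.5 and E15.5 the sum differed by 1.95, with a background of 9.95% of genes called higher. This and later backgrounds cover genes of at least 50 CPM in either pool, also where members are counted only if they reach it in both. The 5 members of at least 50 CPM in both pools, Fos, Jun, Junb, Ier2 and Ier3, were called higher. Fosb, Atf3, Egr1, Socs3 and Irf1 reached 50 CPM only in the E18.5 pool, where they were high, and are given as values with no count. Socs3 differed most (2.72), then Fos (2.44) and Jun (2.26), and Ier2 least (1.32).

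Between P8 and E18.5 the sum differed by 1.16. The contrast shares the P8 library on which the genes were chosen, and nothing is read from its count of 7 of 10 called higher, printed beside a background of 5.05%. Atf3 differed most, by 2.51, a 5.68-fold higher level (2.48 to 2.55 on the log2 scale). Irf1 followed at 1.79 and Ier3 at 1.53, while Egr1 and Socs3 were both at 1.45, Junb at 1.35 and Fosb at 1.27. Fos lay just under 2-fold, at 0.996, with Ier2 at 0.94 and Jun at 0.77. The median over all genes tested was 0.09. ECs of both libraries had close median UMIs, 5667 at P8 against 5682, and median mitochondrial shares of 3.53% against 3.99%. The 5 features of RNA quality tested, such as Lars2, had a median log2 of 0.79. The part of depth and RNA quality in the members' differences was not tested.

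At E18.5 the sorted ECs were higher than the whole-lung ECs of the library labelled control by 0.54 for the sum. Ier3 (1.26) and Atf3 (1.22) were called higher, 2 of 10, against a background of 2.69%. Against the library labelled null, a comparison added after seeing the data, Ier3 was higher by 0.67, under 2-fold, and Atf3 by 1.45. Against the library labelled control Fos was higher by 0.74 and Jun by 0.57, Fosb differed by -0.06 and Egr1 was lower by 0.80. These values are from the unadjusted counts. Several moved with the adjustment, though Jun hardly did, at 0.59 over the library labelled control. Set against the SoupX-adjusted whole lungs, an alternative added after seeing the data in which the sorted libraries stay unadjusted, the sum was higher in the sorted ECs by 1.27 over the library labelled control and by 0.70 over the library labelled null. Over the former, of the 6 members of at least 50 CPM in both pools, Junb (2.11), Ier3 (1.72), Fos (1.64) and Ier2 (1.34) were then called higher and 0 lower (backgrounds 5.07% and 3.85%), and Egr1 turned to 0.88. Socs3 (3.03), Fosb (1.70) and Atf3 (1.67) reached that level only in the sorted pool. Over the latter 1 of 8, Fos (1.27), was called higher and 0 lower (backgrounds 1.38% and 1.96%), Egr1 was at 0.18, and Atf3 (2.21) reached 50 CPM only in the sorted pool. In ECs other cell classes' markers also differed between these libraries. Mesenchymal markers were at 149 CPM in the sorted ECs and at 621 and 399 in those of the libraries labelled null and control, and immune markers at 3.88, 312 and 554. Epithelial markers were at 471, 405 and 1388 CPM and erythroid markers at 1207, 512 and 1711, so for both the sorted ECs lay between the whole lungs. Their part in the result was not tested. Hspa1a, a heat-inducible chaperone, was at 413 CPM in sorted E18.5 ECs and 6.2 and 5.4 CPM in the whole-lung ECs labelled null and control. It was at 233 CPM at P8, 34.2 at E15.5 and 32.7 at E13.5. Of 11 heat shock and chaperone genes tested over the library labelled control, 2 were called higher and 0 lower. The backgrounds were 2.69% and 2.89%. The median log2 was 0.40 for the list and 0.08 for all genes tested. Hspa1a reached 50 CPM only in the sorted pool, so nothing is read from that count.

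Between the whole-lung libraries the sum was 0.10 higher in the one labelled null, and 0 of 9 members tested were called in either direction, against 0.148% of all genes called higher and 0.444% lower. The largest member difference was Ier3 at 0.59 (0.55 to 0.64), then Ier2 and Socs3, both at 0.27. In the SoupX-adjusted counts the difference in the sum was larger. The adjustment kept 68.0% of the member UMIs of ECs in the library labelled null and 35.7% in the library labelled control, against 81.2% and 59.1% over all genes. Adjusted sums were 3827 and 2579 CPM, and of the 6 members of at least 50 CPM in both pools Junb (1.53) and Ier3 (1.04) were then called higher in the library labelled null, against 1.62% of all genes called higher and 1.53% lower in the adjusted counts. Socs3 (2.06) reached that level only in the library labelled null. Junb was at 708 and 245 CPM, Socs3 at 140 and 33.3 CPM and Ier3 at 381 and 185 CPM after adjustment, while Jun was at 1176 and 1200. Fos was among the genes from which the free RNA was estimated. The size of the difference between these libraries therefore depended on the adjustment, and its direction on labels that Cxcl12 goes against.

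Per cell, 93.3% (92.7 to 93.8) of ECs at P8 held 10 or more member UMIs, 79.7% (78.9 to 80.5) at E18.5, 57.7% (56.7 to 58.7) at E15.5 and 32.9% (26.5 to 39.7) at E13.5. The E13.5 share was 20.6% in ECs with under 2 UMIs of other classes' genes and 21.4% without Jun. In the libraries labelled null and control the share was 86.8% (85.5 to 88.0) and 75.6% (73.7 to 77.5), and with the SoupX-adjusted counts 70.2% and 38.7%. These shares move with depth. After each EC was thinned to 2000 UMIs, with 2, 20, 141 and 197 shallower ECs left out from E13.5 to P8 and 22 and 9 in the libraries labelled null and control, the shares were 0.962%, 2.83%, 48.7% and 86.1% over the time course and 35.4% and 31.1% in the libraries labelled null and control. The library labelled null was above sorted E18.5 before thinning and below it after, while the library labelled control was below it both times. The median EC held 6, 12, 27 and 80 member UMIs from E13.5 to P8, and 33 and 26 in the libraries labelled null and control. Just outside and just inside the limit, with 9 and 10 UMIs, lay 50 and 58 ECs at P8 and 217 and 197 at E18.5.

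**Figure D2:**
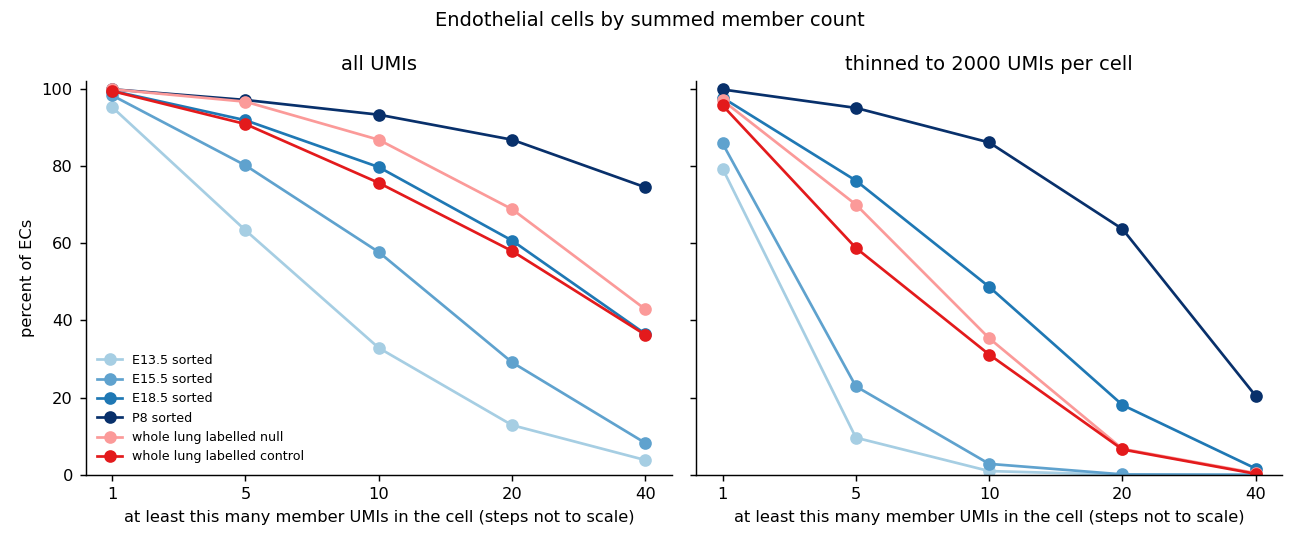
Percent of ECs with at least 1, 5, 10, 20 or 40 UMIs of the 10 genes (x axis), by library, in all UMIs (left) and in cells thinned to 2000 UMIs (right). At 10 or more UMIs the thinned P8 library stands at 86.1% and the thinned E15.5 library at 2.83%.

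At P8 each gene had a UMI in over 50% of ECs, a share of cells with a UMI for which the sorted library held no class without these genes to give a background. Jun had a UMI in 98.6% of P8 ECs, Ier2 in 96.7%, Junb in 94.8%, Ier3 in 91.0% and Fos in 90.3%. Fosb and Irf1 were lowest, at 55.3% and 55.6%. In thinned cells Fos was detected in 10.1%, 25.5%, 60.7% and 83.4% of ECs from E13.5 to P8, and in 46.0% and 42.7% in the libraries labelled null and control. Atf3 was detected in 0.96%, 6.28%, 12.5% and 50.2%, with 5.40% and 4.62% in the libraries labelled null and control. Other cell types of the whole lungs also held these genes, so no class served as a background there either, and the part of free RNA in these shares was not tested.

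Detection of the genes in the same thinned cells was more linked at E18.5 and P8 than earlier, as a description with no test, since cells of a library share its preparation. The median Spearman coefficient over all pairs was 0.03 at E13.5 (208 ECs) and 0.07, 0.23 and 0.28 at the later times, and 0.16 and 0.17 in the libraries labelled null and control. Thinner counts lower such coefficients, and their part in these values was not tested. Fos and Junb were the closest pair at E15.5 (0.21), E18.5 (0.52), P8 (0.53) and in the library labelled null (0.38). At P8 Junb was detected in 95.3% of Fos-positive and 68.4% of Fos-negative thinned cells. Jun and Irf1 were the least linked pair at P8 (0.07).

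The vessel states were cells with at least 2 UMIs of Gja4 (connexin 37, of arterial and many capillary ECs), Gpihbp1 (the lipoprotein lipase anchor of capillary ECs) or Car4 (a carbonic anhydrase of the gas-exchange capillary cells). They overlapped, and 57.8% of P8 ECs were in both the Gja4 and the Gpihbp1 state. All states carried the genes. At P8 the sum was 14220 CPM in the Gja4 state, 13434 in the Gpihbp1 state, 13389 in the Car4 state and 12086 in cells of none of the 3. At E18.5 it was 6234, 6228 and 6700 CPM in the 3 states and 6182 in cells of none. In the library labelled null it was 4734, 4316 and 4638 CPM, and in the library labelled control 4637, 4066 and 4511 CPM. The last value rests on 57 Car4 cells with 5581 CPM of epithelial markers, against 1172 and 1150 in the Gja4 and Gpihbp1 states. Cells in none of the states stood higher in the whole lungs, at 6153 and 4932 CPM, and there held 1485 and 1969 CPM of immune markers, 1519 and 615 CPM of mesenchymal markers and 946 and 3956 CPM of epithelial markers. Epithelial markers were at 7207 CPM in the P8 cells of none. The part of these markers in those levels was not tested. At E15.5 it was 1623 CPM in the Gja4 and 1630 in the Gpihbp1 state. At E13.5 the Gja4 state held 192 of 210 ECs and a sum of 1152 CPM.

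No member differed 2-fold between the Gpihbp1 and Gja4 states in any of the 5 libraries where both held 50 cells, with cells counted in each state they met. In cells of exactly 1 state with under 2 UMIs of other classes' genes, a setting chosen after seeing the data, Fos did pass 2-fold, at -1.39 in the library labelled null and -1.06 in the library labelled control. Before the limit on other classes' genes the Gja4-only pools held 647 and 238 cells. No share over all genes stands beside that setting, so nothing is read from it. The backgrounds that follow are for the overlapping states. The background of genes called in either direction was 3.37% at E15.5 (6 members tested), 4.12% at E18.5 (10), 0.491% at P8 (10), 2.32% in the library labelled null (8) and 2.85% in the library labelled control (9). Within states that share cells, the difference in the sum between P8 and E18.5, the contrast that the choice of genes touches, is given as a description from which nothing is read. It was 1.19 in the Gja4 state with 7 of 10 members called higher (background 5.67%), 1.11 in the Gpihbp1 state with 8 of 10 (5.13%) and 1.00 in the Car4 state with 8 of 10 (4.78%).

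Because the states overlapped, cells in exactly 1 state were also compared. The sum was 16982 CPM in the 1525 Gja4-only ECs at P8 (16896 to 17069), 12460 in the 936 Gpihbp1-only ECs (12362 to 12559) and 12271 in the 223 Car4-only ECs (12076 to 12468). The median UMIs per cell of the first and second pool were 4941 and 4902.5. In the library labelled null the Gja4-only and Gpihbp1-only sums were 4989 and 4071 CPM, and in the library labelled control 5041 and 3950. At E18.5 and E15.5 the same pools lay closer, at 6238 and 6066 CPM and at 1612 and 1598 CPM. On the log2 scale these differences were 0.45, 0.29, 0.35, 0.04 and 0.01.

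Fos had the same direction in all 5 libraries. At E15.5 its ratio between the states kept its sign in 9 of 10 other settings. Fos was at 224 CPM in Gja4-only and 192 in Gpihbp1-only cells at E15.5, 1417 and 968 at E18.5 and 3647 and 2054 at P8. It was at 947 and 582 CPM in the library labelled null and 938 and 589 in the library labelled control. Ier2 was likewise higher in Gja4-only cells in 5 of 5 libraries, by 0.11 to 0.56 on the log2 scale. Fosb was higher in 4 of 5, most at P8, where it was at 409.9 and 207.0 CPM (log2 0.98, 0.89 to 1.09). Irf1 was the reverse, lower in Gja4-only cells in 5 of 5 libraries, by log2 differences from -0.63 to -0.01, although in the library labelled control the interval (-0.32 to 0.28) included 0. Socs3 was lower in Gja4-only cells in the 3 sorted libraries, at 717 and 745 CPM at P8, 217 and 335 at E18.5 and 34.8 and 50.5 at E15.5, and was at 195 and 186 and at 169 and 158 CPM in the libraries labelled null and control. Among the sorted libraries the Socs3 interval at P8 included 0 (-0.11 to 0.01).

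**Figure D3:**
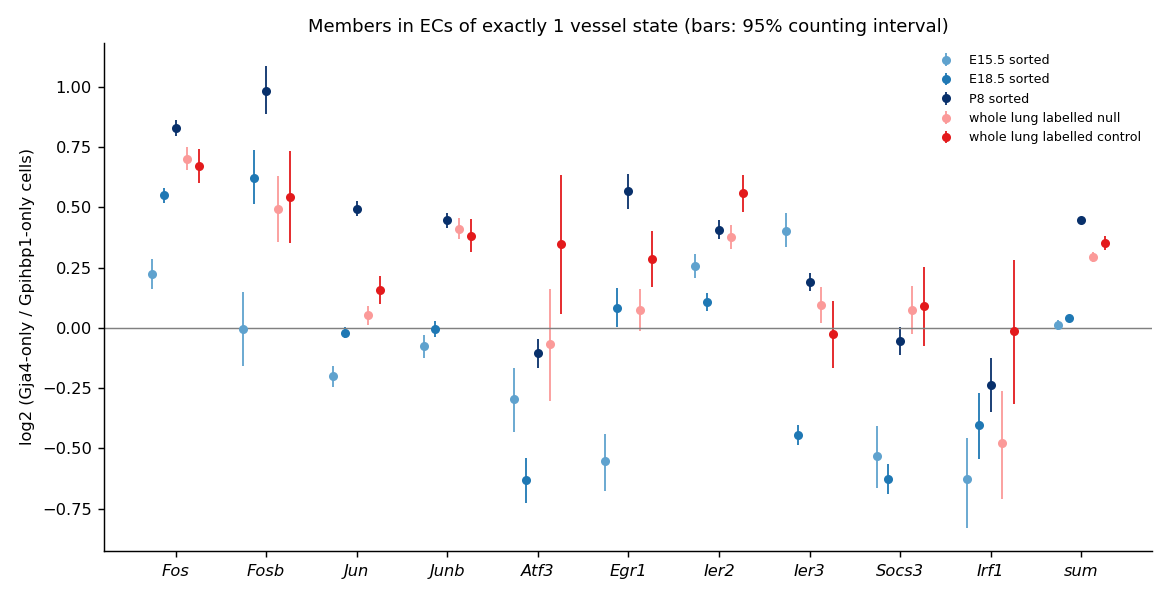
Log2 ratio of each gene's CPM (plus 0.5) in Gja4-only over Gpihbp1-only ECs, in the 5 libraries with at least 50 cells of each; points are libraries and values above 0 are higher in Gja4-only cells. Fos and Ier2 lie above 0 in all 5 libraries and Irf1 lies below 0 in all 5.

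The genes were not particular to ECs. Mesenchymal cells of the same libraries held a sum of 2522, 4005, 12989 and 11438 CPM from E13.5 to P8, the later values in 286 and 67 cells, and of 10223 and 10603 CPM in the libraries labelled null and control. ECs were lower than mesenchymal cells for the sum in 5 of 6 libraries, the exception being P8 (log2 0.28). Egr1 was lower in ECs in 6 of 6 libraries, at 88.2 against 351 CPM at E13.5, 48.4 against 574 at E15.5, 173 against 1159 at E18.5, 474 against 762 at P8, 282 against 1000 in the library labelled null and 302 against 1040 in the library labelled control. Fos, Fosb and Junb were also lower in ECs in 6 of 6, although for Junb at P8 the interval (-0.12 to 0.03) included 0. Ier3 alone of the 10 was higher in ECs in 6 of 6 libraries, by 0.32 to 1.43 on the log2 scale, and Irf1 was higher in 4 of 6, although in sorted E18.5 (0.03) its interval (-0.21 to 0.27) included 0. The mesenchymal cells of the E18.5 and P8 sorts were few.

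**Figure D4:**
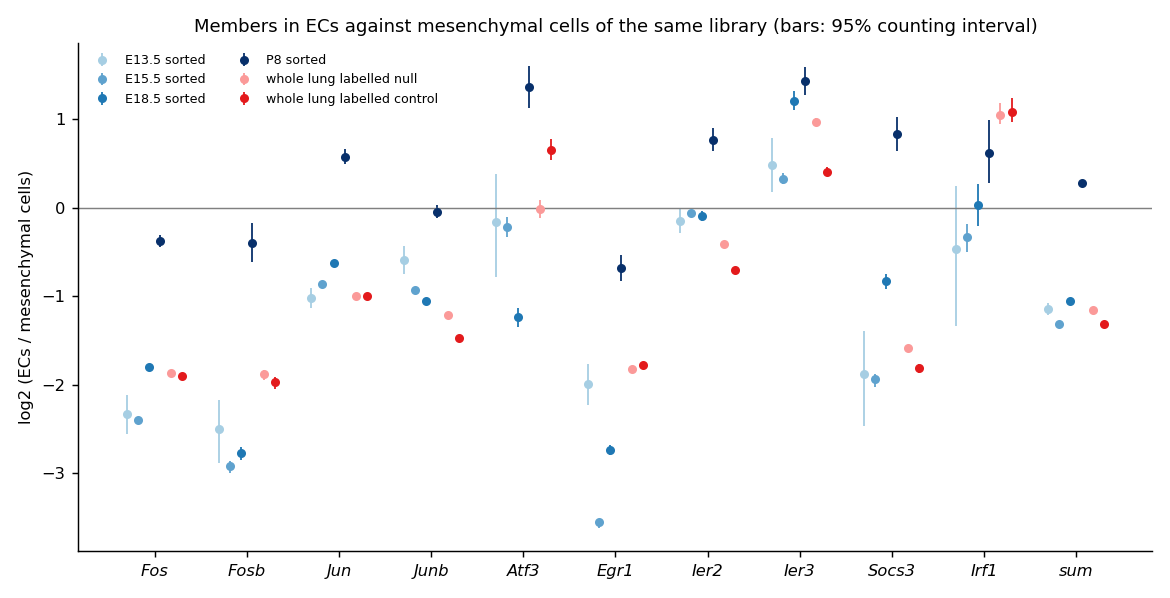
Log2 ratio of each gene's CPM (plus 0.5) in ECs over mesenchymal cells of the same library; points are the 6 libraries and the line at 0 marks equal levels. Ier3 lies above 0 in all 6 libraries, and Fos, Fosb, Junb and Egr1 lie below 0 in all 6.

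Against the other classes of the whole lungs, the sum in ECs was above that of epithelial cells (3374 and 3679 CPM in the libraries labelled null and control) and below that of immune cells (6959 and 6607 CPM). Atf3 was lower in ECs than in immune cells by 2.98 and 2.83 on the log2 scale, and Fos by 1.70 and 1.58. Jun was higher in ECs than in immune cells, by 0.74 and 0.77. Ier3 and Irf1 were higher in ECs than in epithelial cells, by 1.12 to 1.36 and 1.09 to 1.59, and Atf3 was lower, by 1.03 and 1.04.

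Other genes were then described in ECs with 10 or more member UMIs against ECs with 0 to 2, after thinning, a split that the members themselves make and that gives no test. It held 267 and 4834 cells at E15.5, 4371 and 1094 at E18.5, 6941 and 169 at P8, 1068 and 484 in the library labelled null and 627 and 480 in the library labelled control. At E13.5 only 2 ECs reached 10 UMIs. Genes called higher over all genes tested were 1.07% at E15.5, 1.16% at E18.5, 2.45% at P8, 2.62% in the library labelled null and 3.25% in the library labelled control. Genes called lower were 0.429%, 0.481%, 3.27%, 1.2% and 0.721%. The cells of the high pool were deeper before thinning, with medians of 6022 against 3436 UMIs at P8 and 9464 against 6676 in the library labelled control, and this was not tested as a source of the differences.

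Other immediate-early genes were described first. The example genes of this list and of those below were picked by their ratio in this split before thinning. Nothing is therefore read from their direction. Counts of this list and of those below cover genes of at least 50 CPM in either pool. Some genes reached that level only in the high pool and could hardly be called lower, so nothing is read from the counts. Zfp36 did so at E15.5, E18.5, P8 and in the library labelled null. Of the tested immediate-early genes, 10 of 19 were called higher at E15.5, 14 of 18 at E18.5 and 16 of 22 at P8, with 1 lower. In the libraries labelled null and control 12 of 21 and 13 of 20 were called higher. Zfp36, which encodes an RNA-decay factor that limits short-lived transcripts, was at 174 against 29.4 CPM at E15.5, 332 against 47.5 at E18.5, 467 against 20.7 at P8, 325 against 46.5 in the library labelled null and 328 against 50 in the library labelled control. Nr4a1, an early-induced nuclear receptor, was higher by 2.15 to 2.73 on the log2 scale and Csrnp1 by 1.17 to 3.92. Klf10 differed by -0.01 to 0.48.

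Of the integrated stress and damage genes tested, 1 of 5, 4 of 6, 5 of 6, 4 of 7 and 6 of 8 were called higher in the same order of libraries. Some of these too reached 50 CPM only in the high pool, such as Gadd45g at P8 (304 against 38.5 CPM). Ppp1r15a (GADD34), which reverses the block of translation in the stress response, was higher by 1.94, 2.29, 2.73, 2.22 and 2.25. Atf4 differed by 0.41 to 0.82. Of the heat shock and chaperone genes tested, 1 of 10, 4 of 11, 4 of 11, 0 of 9 and 1 of 9 were called higher. These include Hspa1a at P8, which reached 50 CPM only in the high pool. Hspa1a was at 228 against 14.8 CPM at P8 and 535 against 84.6 at E18.5, and Dnajb1, a partner of heat-inducible chaperones, at 119 against 53.2 and 89.9 against 40.7. Hspa5, the chaperone of the endoplasmic reticulum, differed by -0.10 to 0.10.

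NF-kB and endothelial activation genes had few tested members, and 1 of 3, 1 of 4, 3 of 4, 2 of 5 and 1 of 3 were called higher. These include Nfkbiz at P8, which reached 50 CPM only in the high pool (87.6 against 8.88 CPM). Nfkbiz and Nfkbia, induced genes of that pathway, were higher by 1.88 to 3.23 and by 0.69 to 1.37. Nfkb1, a subunit of the factor, differed by -0.30 to 0.16. Of the interferon and Irf1 target genes tested, 0 of 1, 0 of 6, 0 of 6, 0 of 3 and 0 of 5 were called higher. B2m, the light chain of class I molecules, differed by -0.26 to 0.10. STAT3 and cytokine feedback genes gave 0 of 1, 1 of 4, 2 of 6, 2 of 4 and 0 of 5, with Pim3 higher by 0.73 to 1.81 and the receptor subunit Il6st differing by -0.42 to 0.03. The 6 reference genes, such as Actb and Gapdh, gave 0 calls in every library.

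**Figure D5:**
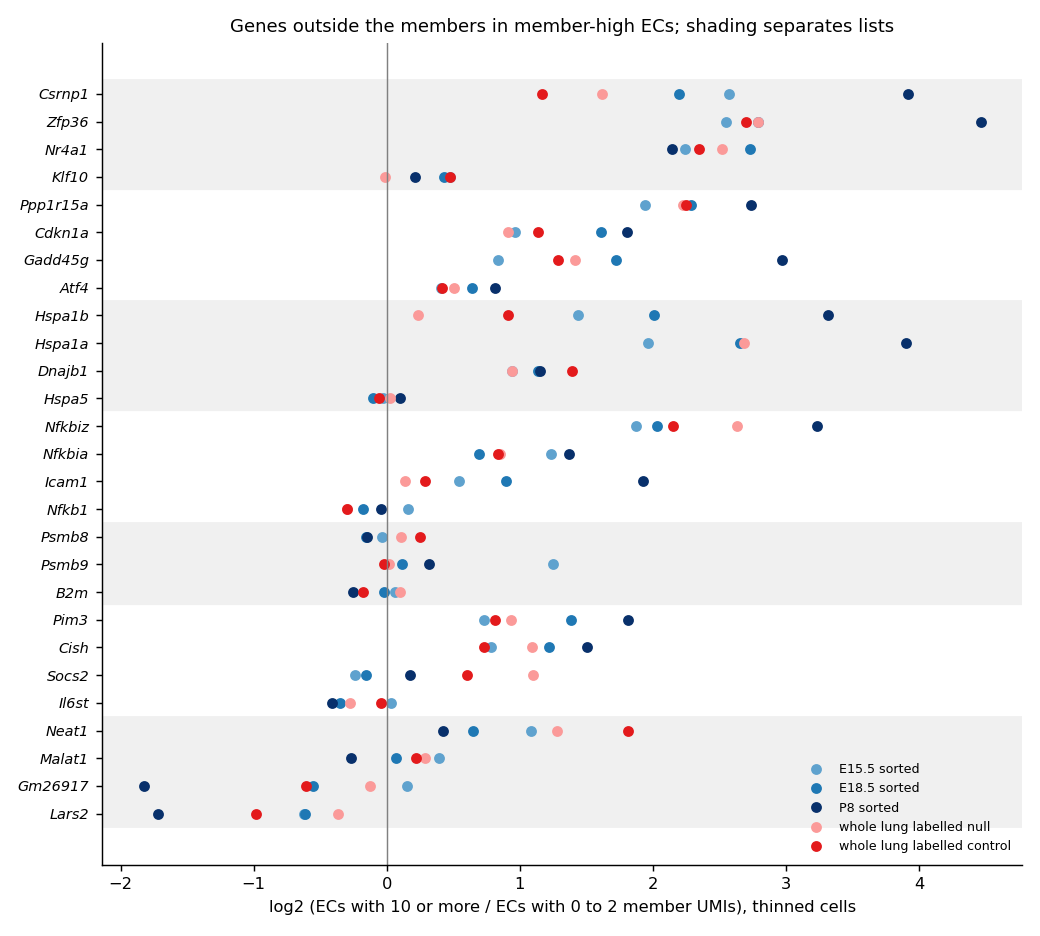
Log2 ratio of the example genes of each list in thinned ECs with 10 or more over those with 0 to 2 member UMIs; points are 5 libraries, a point is left out where the low pool held no UMI of the gene, and the line at 0 marks equal levels. Zfp36, Nr4a1, Ppp1r15a and Nfkbiz lie above 0 in all 5 libraries, while Hspa5 lies within 0.10 of 0. The example genes were picked by their ratio in the same split before thinning, so nothing is read from their side of 0.

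Markers of other cells and of RNA quality moved with this split. Mesenchymal markers (7 genes) were at 1170 against 174 CPM at E15.5, 110 against 55.3 at E18.5, 13.9 against 71.0 at P8, 763 against 129 in the library labelled null and 611 against 71.9 in the library labelled control. Immune markers (5 genes) were at 241 against 33.1 and 346 against 34.4 CPM in the libraries labelled null and control, and at or below 24.3 CPM in the sorted pools. At P8 3 of 5 RNA-quality features were lower in the high pool, including Lars2 at 479 against 1574 CPM, and the median mitochondrial share was 3.44% against 5.14%. The summed level of the haemoglobin genes was lower in the high pool in each of the 5 libraries. In the split before thinning it was lower there at E15.5 (369 against 1323 CPM). It was higher at E18.5 (1149 against 332), P8 (930 against 135) and in the library labelled control (303 against 48.6). Epithelial markers (6 genes) in that split were at 9.90 against 4.87 CPM at E15.5 and 536 against 24.3 at E18.5. They were at 404 against 3.98 CPM at P8 and 1570 against 106 in the library labelled control. The part of these markers and features in the gene differences was not tested.

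The same lists were counted between libraries, among genes of at least 50 CPM in either pool. Some genes, such as Hspa1a at E18.5 over E15.5, reached that level only in the later pool. Such genes could hardly be called lower, so nothing is read from these counts. Other immediate-early genes were called higher in 13 of 19 at E18.5 over E15.5, with 1 lower, and in 5 of 20 at P8 over E18.5, beside the backgrounds of 9.95% and 5.05% given above. Integrated stress genes gave 5 of 6 and 1 of 6, heat shock genes 3 of 11, with 2 lower, and 0 of 11, NF-kB genes 0 of 3 and 1 of 4, and interferon and Irf1 target genes 4 of 5 and 2 of 7, with 1 lower. STAT3 and cytokine feedback genes gave 1 of 3 and 1 of 4. RNA-quality features gave 3 of 4 and 2 of 5, and reference genes 0 of 6 in both. Zfp36 stood at 53.0, 218 and 415 CPM at E15.5, E18.5 and P8, whereas Hspa1a was at 34.2, 413 and 233 CPM.

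Over 20 pools of library and vessel state, the genes outside the members whose log2 CPM was most like the summed level were Nr4a1 (Pearson r 0.980), Csrnp1 (0.979), Ier5 (0.976), Psmb10 (0.969), Fmo1 (0.966), Dusp1 (0.965), Gm12166 (0.965), Plscr1 (0.964), Klhl5 (0.964) and Zbtb20 (0.963), among 4945 genes. The pools of a library share its preparation and many of the same cells, so the coefficient is a description. Among the members Junb was most like their sum (0.996) and Egr1 least (0.843).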

How the data were processed

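Single-cell RNA of mouse lungs was measured in 6 libraries, 1 per condition, grouped by their labels. The authors ran Cell Ranger (3.1 per the labels, 3.0.2 or 3.1.0 per the file headers) on mm10 and deposited unscaled counts of UMIs for every gene in every called cell. Expected counts of the whole lungs, which the authors deposited beside these, were adjusted with SoupX for free RNA, are not whole numbers, and were used unrounded as an alternative in sums only. The members and all lists were chosen with earlier results of these data known.

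The study's own limits on cells were applied (700 genes or more, mitochondrial share from 0.5% to 10%) with Python 3.11.15, numpy 2.4.6, scipy 1.17.1 and scanpy 1.11.5. Whole-lung cells were filtered on the raw counts. Levels are CPM, summed UMIs per 1000000 UMIs, of a pool of at least 50 cells, with exact Poisson intervals, and shares carry Clopper-Pearson intervals, both at 95%. UMI counts in the libraries, 63746333 to 117522172, set this precision. Log2 ratios add 0.5 CPM. Thinning drew 2000 UMIs per cell (seed 1). Lists were described by all genes tested, the lists' 3 genes of largest mean ratio and the lowest, and likeness by Pearson's r of log2 CPM plus 1. The mean ratio was that of the split before thinning, without E13.5 and the library labelled null.

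Other classes were cells under the EC limit with at least 2 UMIs of Epcam plus Cdh1 (epithelial), 5 of Ptprc, Tyrobp and Fcer1g (immune) or 10 of Col1a1, Col1a2 and Col3a1 (mesenchymal). Doublets were kept in the main values and removed in an alternative. Scrublet's own threshold called 416, 507 and 427 cells at E15.5 and in the libraries labelled null and control, but 1, 0 and 0 at E13.5, E18.5 and P8, where the highest scores up to a rate of 6% were removed instead. The scripts were tested on simulated data. A result for 1 gene of the interferon list is not reported here.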

Additional observations from a re-analysis of the deposited data

Results flagged for a closer look

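Socs3 and Atf3 were picked out because their level in the Gpihbp1 state relative to the Gja4 state (log2, with overlapping cells counted in both) was above 0 in the 3 sorted libraries with a value and below 0 in both whole lungs. E13.5 held 4 cells of the Gpihbp1 state and gave none. For Socs3 it was 0.003 at P8, 0.34 at E18.5 and 0.34 at E15.5, and -0.04 and -0.12 in the libraries labelled null and control, so that the mean of the sorted libraries exceeded that of the whole lungs by 0.31. For Atf3 it was 0.03, 0.38 and 0.20, and -0.03 and -0.04, a difference of 0.24. The difference between sorted and whole lungs was not tested, and several signs turned with the processing. With SoupX-adjusted values Socs3 was at 0.52 and Atf3 at 0.57 in the library labelled control. In the library labelled null Atf3 was at 0.13 in thinned cells and at 0.068 in cells of exactly 1 state. Socs3 at P8 was at -0.0069 as a mean over cells. Each condition had 1 library, so the sort and the library cannot be told apart.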

How the results depend on the processing

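No paired analysis was possible because each condition had 1 library, and for the same reason there was no replicate to leave out. Values for sets of libraries follow in the order E13.5, E15.5, E18.5, P8, then the libraries labelled null and control. For P8 over E18.5, E18.5 over E15.5, labelled null over control and the states, 8 to 12 settings were run for each. No called value changed sign in P8 over E18.5 or E18.5 over E15.5. Labelled null over control and the states had no called value in the main setting, so none could turn there. In labelled null over control Fos kept its sign in 4 of 9 settings, Atf3 in 6 of 9, and Fosb, Egr1 and Irf1 in 8 of 9. Jun, Junb, Ier2, Ier3 and Socs3 kept theirs in 9 of 9. E15.5 over E13.5 was not run under other settings, and sorted over whole lung only against the library labelled null and with SoupX-adjusted values. The summed level at P8 exceeded that at E18.5 at least 2-fold in each setting that was run. The genes were chosen on the P8 library that all these settings share, so nothing is read from this. The Gpihbp1 over Gja4 values at E15.5 and E18.5 lay near 0 and took either sign. A pseudocount of 5 CPM moved no summed ratio by 0.01 but lowered some single genes, such as Irf1 (1.59 to 1.39) and Fosb (1.54 to 1.42) between E18.5 and E15.5, and left each member on its side of 2-fold. The cause of each move was not tested, except where the setting itself leaves out UMIs or cells.

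Over all called barcodes the sum was 1600, 6206, 13821, 4523 and 4196 CPM from E15.5 on and the share of ECs with 10 or more member UMIs 54.5%, 78.2%, 90.7%, 84.1% and 70.7%. At least 1000 genes per cell gave a share of 94.1% at P8. With at least 4 UMIs of Pecam1 plus Cdh5 the share was 94.4% at P8 and 80.8% at E18.5, and the whole-lung sums were 4452 and 4193 CPM. In ECs with under 2 UMIs of other classes' genes the sum was 942, 1551 and 6127 CPM at E13.5, E15.5 and E18.5 and 3829 and 3521 in the whole lungs. The share there was 20.6% at E13.5 and 84.5% and 71.3% in the whole lungs, the log2 ratio of P8 over E18.5 was 1.18, that of labelled null over control 0.12 and the Gpihbp1 over Gja4 ratio in the library labelled null -0.19. With doublets removed the sum was 989, 1571, 6147, 4096 and 3798 CPM without P8 and the share 22.7%, 56.2%, 78.6%, 85.4% and 73.1%. P8 over E18.5 was then 1.17, and the state ratio 0.024 at E15.5, -0.094 at P8 and -0.18 in the library labelled null.

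In cells thinned to 2000 UMIs the sum was 1077, 1520, 5851, 13439, 4324 and 3850 CPM and the share 0.962%, 2.83%, 48.7%, 86.1%, 35.4% and 31.1%. P8 over E18.5 was 1.20, labelled null over control 0.17, and the state ratio 0.046 at E18.5, -0.10 at P8, -0.16 and -0.23. Without Jun, the member with the most UMIs, the sum was 772, 1234, 4421, 10800, 3378 and 3050 CPM and the share 21.4%, 45.8%, 66.5%, 89.9%, 75.4% and 61.6%. P8 over E18.5 was 1.29, labelled null over control 0.15, and the state ratio -0.021 at E15.5, -0.014 at E18.5, -0.17 and -0.24. The mean of the CPM of each cell gave 1038, 1530, 5847, 13298, 4293 and 3838 CPM, 1.19 for P8 over E18.5, 0.16 for labelled null over control, and 0.044 at E18.5, -0.10 at P8 and -0.23 in the library labelled control for the states. With SoupX-adjusted values the whole-lung sums were 3827 and 2579 CPM, the shares 70.2% and 38.7%, their log2 ratio 0.57 and the state ratios -0.19 and -0.22. Member UMIs of at least 0.2% of a cell's UMIs were held by 10.95% and 25.8% at E13.5 and E15.5, 95.8% at P8, and 75.4% and 64.6%. In cells of exactly 1 state the state ratio was -0.012, -0.040, -0.45, -0.29 and -0.35 from E15.5 on. With also under 2 UMIs of other classes, a setting chosen after seeing the data, it was -0.016, -0.038, -0.45, -0.43 and -0.32. The thinned split of ECs, the removal of doublets by highest scores and the E18.5 over E15.5 alternatives (1.84 to 1.98) were also chosen after seeing the data. Fos, just under 2-fold between P8 and E18.5, lay between 0.99 and 1.08 over 8 alternatives and passed 2-fold in 4. At E13.5, 210 ECs limit the precision.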
